A study of Gallus gallus with 21 samples.

Results

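The retina of control chickens was compared between 6 days and 3 days of a time course, that is between postnatal day 9 and postnatal day 6. Both groups were wild-type White Leghorn birds raised under standard lighting, with no treatment, and they served as controls in a study of how the eye responds to optical defocus imposed by a lens. A library belonged to a group by the day in its title, which gave 7 libraries at 6 days and 7 at 3 days, 14 of the 21 libraries of the series. The remaining 7 libraries, taken at 1 day (postnatal day 4), entered the shared estimate of spread and are quoted as a further level. Of the 18631 genes in the table, 12614 reached 0.5 CPM (reads of a gene scaled to the total of its library) in at least 7 of the 21 libraries and were tested. The question was how retinal transcripts differ between these ages in birds that wore no lens.

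The chick retina is dominated by cones, with rods in smaller numbers, and both convert light into an electrical signal through opsins, a G protein, a phosphodiesterase and a cyclic GMP-gated channel. Photoreceptors hold a circadian clock, in which the activators CLOCK and BMAL1 (ARNTL) switch on the period and cryptochrome genes, whose proteins repress them in turn, and the clock drives the synthesis of melatonin. Molecular chaperones of the HSP70 and HSP90 families fold new and damaged proteins, in the retina as in other tissues.

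Depth, read from the spacing of the lowest values, ran from 32.3 to 38.8 megareads in the 6-day libraries, with a mean of 35.6, and from 31.4 to 41.4 megareads in the 3-day libraries, with a mean of 37.4. The genes in the table took 32.9% to 34.2% of that total at 6 days and 30.8% to 33.3% at 3 days. All 15 markers of retinal neurons and Muller glia found in the table passed the filter, and the lowest value of any of them in the 14 libraries was 0.796 CPM. HINTW, a W-chromosome gene that only female birds carry, stood above 10 CPM in 6 of 7 libraries at 6 days and in 4 of 7 at 3 days, so W-linked transcripts were distributed unequally between the groups. Title codes ended in L in 5 of 7 libraries at 6 days and in 3 of 7 at 3 days. The labels do not say whether libraries came from separate birds, so the p-values measure the spread between libraries, which may be technical in part. Each age is 1 group, and the labels used here give no hour of collection, so that age and whatever else a group shared at collection cannot be told apart.

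In all, 2813 of 12614 genes (22.3%) passed the threshold, an adjusted p under 0.05 in limma with Benjamini-Hochberg adjustment. Of these, 2191 were higher at 6 days (17.4% of genes tested) and 622 were lower (4.93%), and the median gene stood at +0.07 on the log2 scale. This 77.9% share of rises among the calls depended on the scaling: with median-of-ratios scaling 1088 genes were higher (8.63%) and 1074 lower (8.51%), a share of 50.3%. Quantile normalization gave 8.74% higher and 8.82% lower. Most differences were small, since 12 of the called genes were at least 2-fold higher (0.0951% of genes tested) and 29 at least 2-fold lower (0.23%). The 7 libraries of one age all lay above the 7 of the other for 593 genes (4.7%), with the 6-day libraries above for 461 (3.65%) and below for 132 (1.05%). Restricted to libraries that held W-linked transcripts, 6 against 4, the calls made up 9.53% of genes, 838 higher (6.64%) and 364 lower (2.89%). With the presence of W-linked transcripts as a covariate 20.2% of genes were called, 1886 genes higher and 5.24% lower. All log2 changes below are 6 days over 3 days on log2(CPM + 0.5), and all adjusted p-values are from limma. Counts of list members in another setting are to be read against the shares given here for that setting. The gene lists were written with earlier results of these data known. An excess of a list over these shares is therefore no independent support, and it was not tested.

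**Figure D1:**
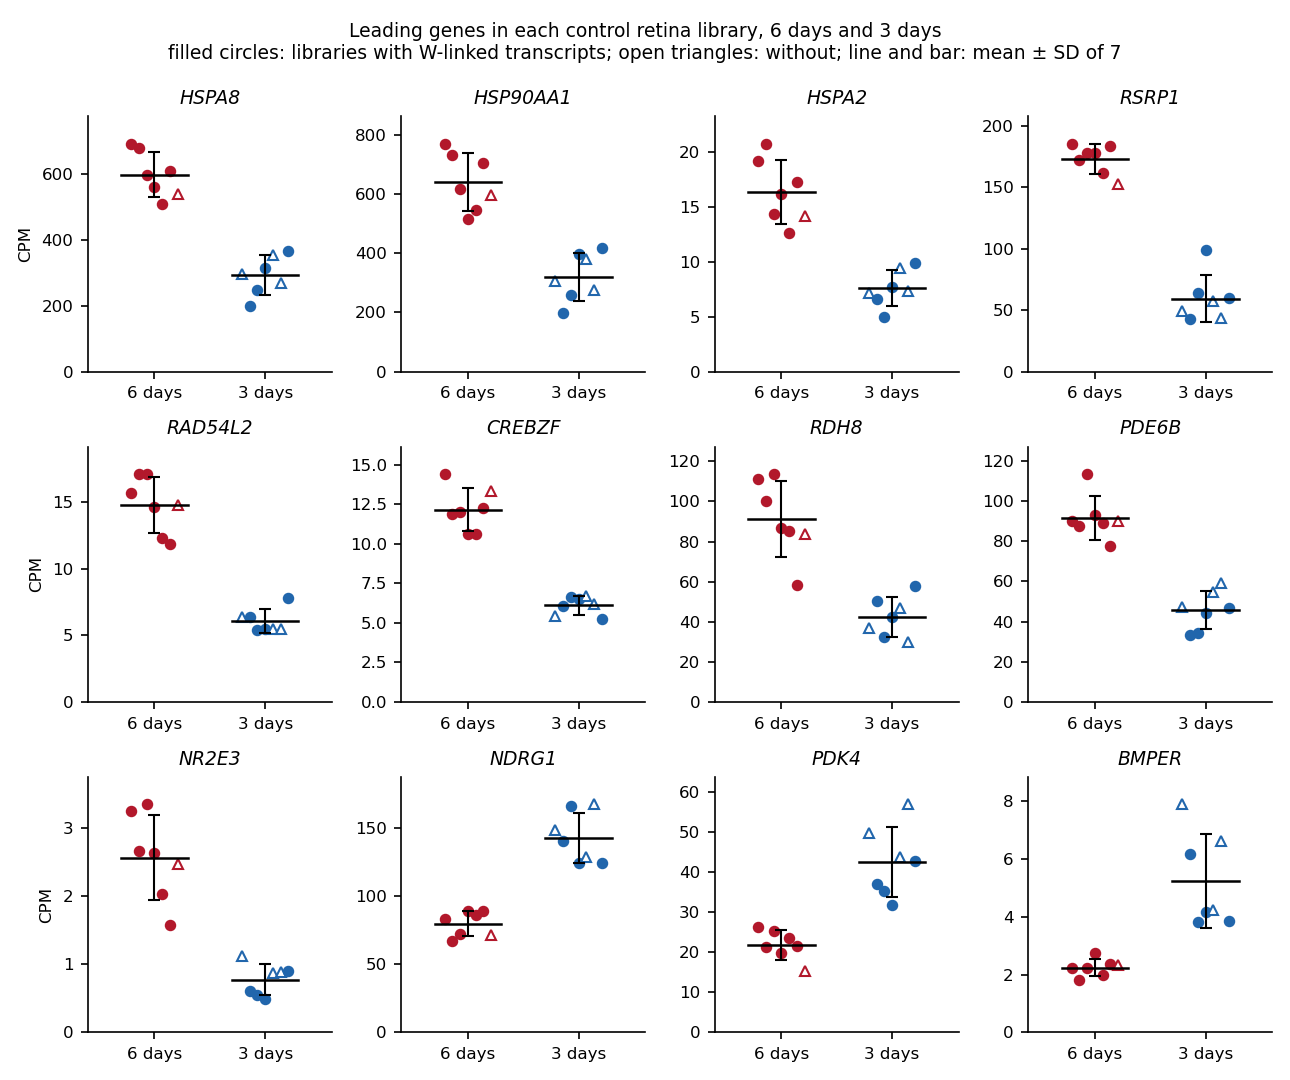
CPM of 12 of the named genes in each library at 6 days (red, left) and 3 days (blue, right). Lines and bars give the mean and SD of 7 libraries, filled circles libraries with W-linked transcripts and open triangles those without. The 6-day libraries lie wholly above the 3-day libraries for the first 9 genes and wholly below them for NDRG1, PDK4 and BMPER. Such separation held for 4.7% of all genes, and the larger but overlapping changes of STS, NEBL1 and CD69L are not drawn.

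**Figure D2:**
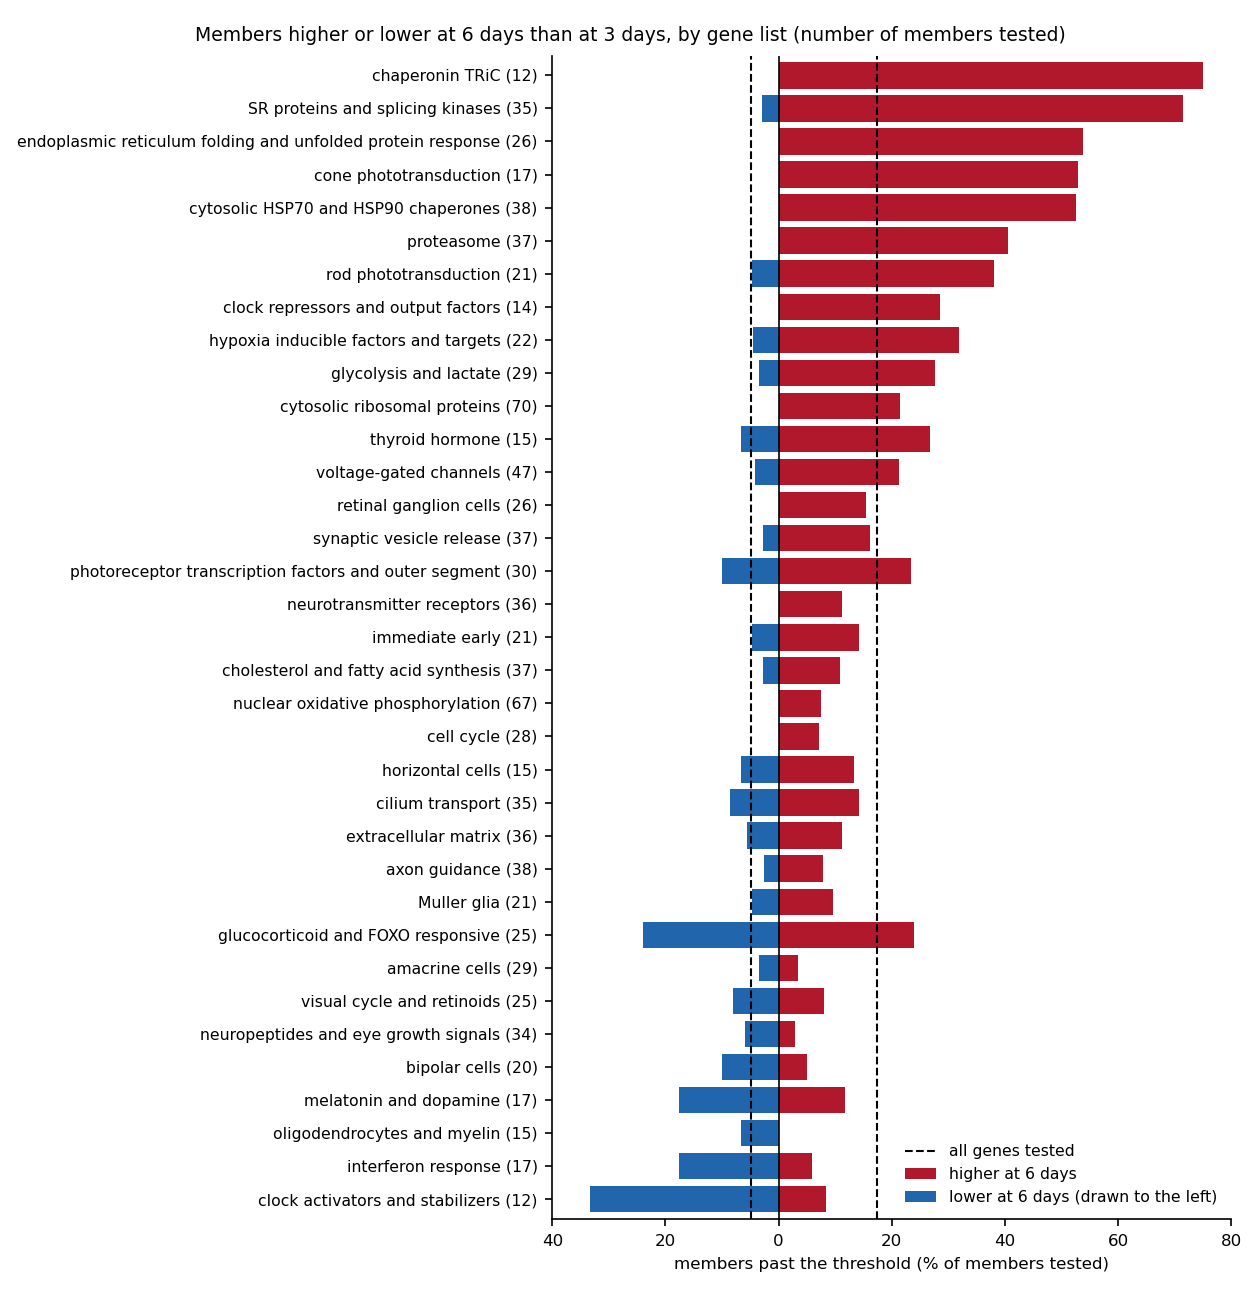
Percent of tested members that passed the threshold as higher at 6 days (red, to the right) or lower (blue, to the left) for each gene list with at least 12 tested members, whose number is in parentheses. Dashed lines mark all genes tested, at 17.4% higher and 4.93% lower; the chaperonin, splicing, endoplasmic reticulum folding, cone and heat shock protein lists reach farthest right and the clock activators farthest left.

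Many heat shock proteins and cochaperones were higher at 6 days. Of 38 tested members of the list, 20 rose, 0 fell and 18 had no call, against 17.4% rises over all genes. The median change was +0.30 against +0.07. The summed level of the list ran between 2007 and 2585 CPM at 6 days and between 1095 and 1621 CPM at 3 days, without overlap. HSPA8 and HSP90AA1 alone averaged 597 and 641 CPM at 6 days, and 292 and 319 CPM at 3 days. The libraries of both ages were separate for 12 of the 38 members, against 4.7% of all genes. With median-of-ratios scaling 18 rose and 0 fell, and the same counts held in the libraries with W-linked transcripts. The list also holds members from other compartments, such as the mitochondrial HSPD1 and the collagen chaperone SERPINH1 of the endoplasmic reticulum.

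HSPA8, the constitutive HSP70 (chromosome 24, 3102900 to 3107843), had 508, 597 and 691 CPM as the lowest, median and highest library at 6 days, against 198, 296 and 366 CPM at 3 days. No 6-day library fell into the 3-day range. HSPA8 rose by 1.05 (SE 0.11, adjusted p = 3.51e-06), and its 1-day mean was 497 ± 58.5 CPM, nearer to the 6-day level. Its locus contains a pair of other annotated genes on the same strand, whose reads may be shared. HSP90AA1, the stress-inducible HSP90 (chromosome 5, 49679064 to 49684242), had 517, 617 and 770 CPM at 6 days, against 200, 305 and 417 CPM at 3 days. The groups were again apart, with a change of +1.03 (SE 0.14, adjusted p = 3.36e-05). HSP90AA1 averaged 557 ± 89.4 CPM at 1 day. HSPA2, another HSP70 family member (chromosome 5, 53058059 to 53060379), stood at 12.6, 16.2 and 20.7 CPM at 6 days, against 4.99, 7.33 and 9.84 CPM at 3 days. Its increase of 1.07 (SE 0.13, adjusted p = 1.51e-05) was the largest of the list, also without overlap.

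Several cochaperones rose with them. AHSA1, which stimulates the ATPase of HSP90, had 17.1, 19.8 and 25.0 CPM at 6 days, against 10.9, 12.1 and 15.4 CPM at 3 days (+0.73, SE 0.09, adjusted p = 1.32e-05). FKBP4, an immunophilin in HSP90 complexes of steroid receptors, averaged 57.6 ± 4.87 CPM at 6 days and 35.0 ± 6.90 CPM at 3 days (SD, n = 7 each, +0.73, adjusted p = 4.09e-05). BAG3, which releases clients from HSP70, averaged 11.9 ± 2.43 CPM at 6 days and 6.01 ± 1.91 CPM at 3 days, and 5 of the 7 libraries at 6 days lay above all at 3 days (+0.95, SE 0.15, adjusted p = 0.00013). The HSP40 proteins DNAJA1, on chromosome Z, and DNAJA4 rose by 0.81 and 0.80, and the nucleotide exchange factors HSPH1, HSPA4 and HSPA4L by 0.87, 0.70 and 0.48. HSPD1 and SERPINH1 stood 0.68 and 1.06 higher. Libraries of both ages overlapped for BAG3 and SERPINH1 but for none of AHSA1, FKBP4, DNAJA1, DNAJA4, HSPH1, HSPA4, HSPA4L and HSPD1.

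HSF1 and HSF2, transcription factors of the heat shock response, were not among the calls. These are transcript levels, and the activity of the proteins was not measured. HSF1 averaged 1.48 ± 0.276 CPM at 6 days and 1.501 ± 0.414 CPM at 3 days (adjusted p = 0.995). HSF2 averaged 28.8 ± 2.98 CPM at 6 days and 27.8 ± 1.66 CPM at 3 days (+0.05, adjusted p = 0.651). FKBP4, DNAJA1, DNAJA4, HSPH1, HSPA4, HSPA4L, HSPD1, SERPINH1, HSF1 and HSF2 are outside the rule for named genes and were chosen after their values were seen. In the same way, other genes outside that rule are marked below with an asterisk.

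**Figure D3:**
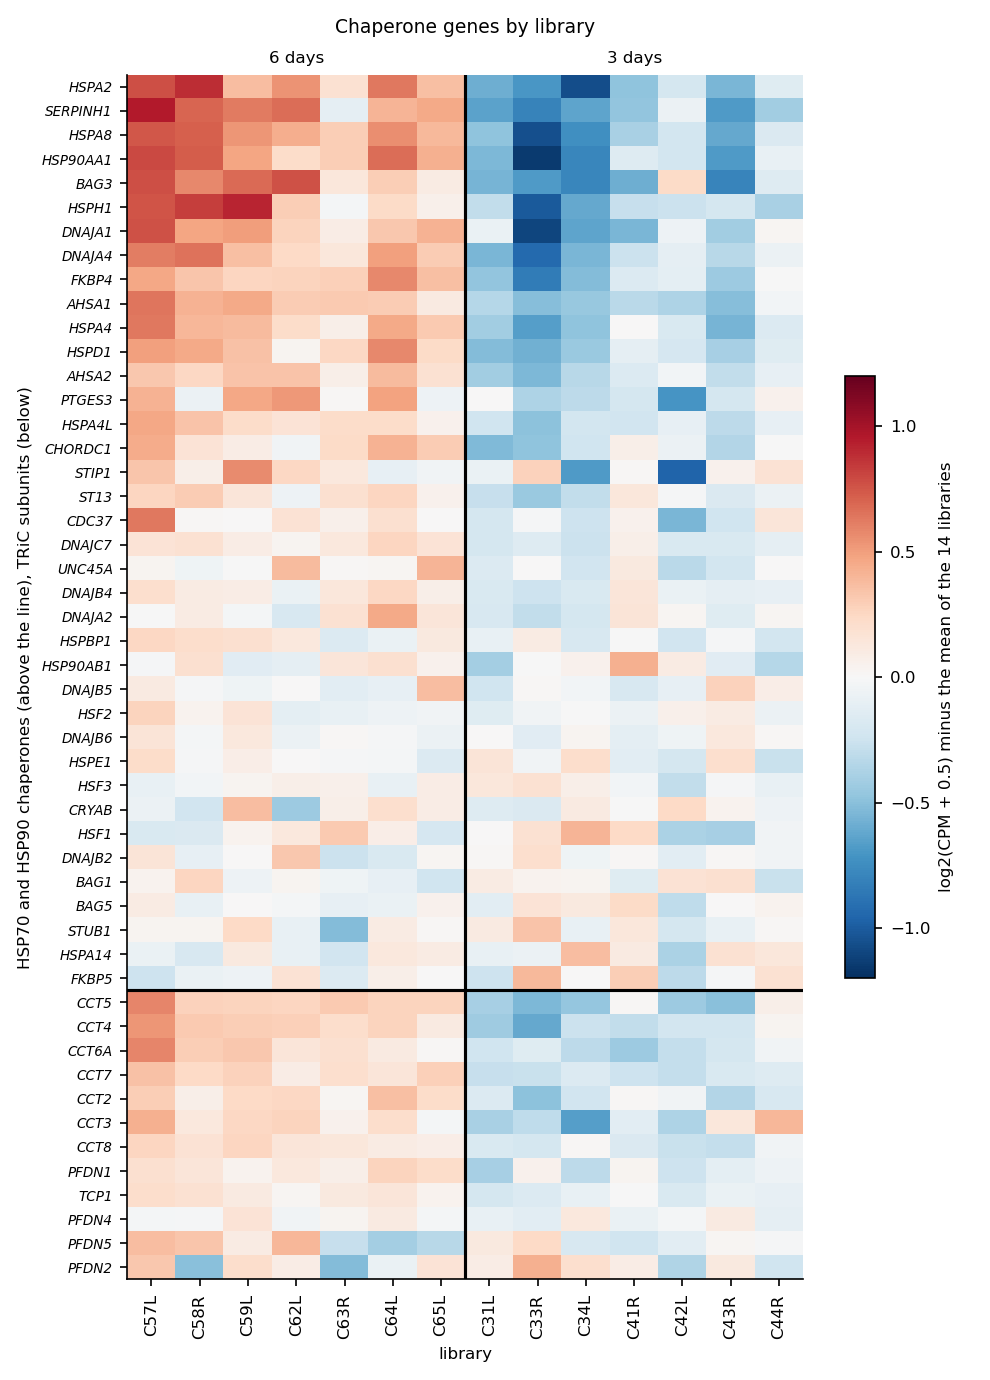
Level of each tested heat shock protein and cochaperone gene (above the horizontal line) and of each TRiC and prefoldin subunit (below it) in the 7 libraries at 6 days (left) and the 7 at 3 days (right), as log2(CPM + 0.5) minus the gene's mean over the 14 libraries. Of the 38 genes above the line 20 rose and 0 fell, and of the 12 below it 9 rose and 0 fell.

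The chaperonin TRiC, the ring that folds actin and tubulin, and its partner prefoldin gave 9 rises and 0 falls in 12 members. Over all genes 17.4% rose and 4.93% fell. The median was +0.35, and 7 members had no overlap, against 4.7% of all genes. These were all TRiC subunits, and the libraries of both ages overlapped for every prefoldin member. With median-of-ratios scaling 8 rose, and in the libraries with W-linked transcripts 7. CCT4 had 23.7, 27.1 and 32.0 CPM at 6 days, against 14.2, 18.3 and 22.7 CPM at 3 days (+0.57, SE 0.08, adjusted p = 4.63e-05). CCT7 had 14.3, 15.9 and 17.3 CPM at 6 days, against 10.9, 11.2 and 11.99 CPM at 3 days (+0.45, SE 0.06, adjusted p = 1.91e-05). Both subunits were higher in each 6-day library than in any 3-day library. CCT8 rose by 0.33, CCT2 by 0.42 and CCT5* by 0.64.

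Protein folding in the endoplasmic reticulum gave 14 rises and 0 falls in 26 genes, against 17.4% and 4.93% of all genes. The median was +0.23. The count of rises was smaller in other settings, as was the share over all genes. With median-of-ratios scaling 6 rose and 0 fell, where 8.63% of all genes rose. In the libraries with W-linked transcripts 9 rose, where 6.64% of all genes did. HSPA5, the HSP70 of this compartment, averaged 77.8 ± 14.7 CPM at 6 days and 48.4 ± 8.68 CPM at 3 days (+0.68, SE 0.12, adjusted p = 0.000381). HSP90B1, its HSP90, averaged 144 ± 16.9 CPM at 6 days and 96.4 ± 17.6 CPM at 3 days (+0.59, SE 0.10, adjusted p = 0.000265). The disulfide isomerase PDIA6 rose by 0.49 and the HSP70 partner HYOU1 by 0.50. DDIT3*, the stress factor CHOP that a strong unfolded protein response induces, averaged 0.668 ± 0.231 CPM at 6 days and 0.753 ± 0.357 CPM at 3 days (adjusted p = 0.805). Of 37 proteasome genes 15 rose and 0 fell, with a median of +0.17. With median-of-ratios scaling 10 rose and in the libraries with W-linked transcripts 5, beside the same shares of all genes. PSMD1, PSMD6 and PSMC5, parts of its regulatory particle, rose by 0.33, 0.48 and 0.33.

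Splicing genes were often higher at 6 days. Of 35 SR proteins, related RNA-binding proteins and splicing kinases, 25 rose and 1 fell, against 17.4% and 4.93% of all genes. The median change was +0.27. The rises numbered 15 with median-of-ratios scaling, 13 in the libraries with W-linked transcripts, and between 19 and 25 when any 1 library was left out, with 1 fall each time. RSRP1, an arginine- and serine-rich protein (chromosome 23, 2551021 to 2555965), had 153, 178 and 186 CPM at 6 days, against 43.03, 57.6 and 99.2 CPM at 3 days. The 6-day libraries were closely grouped and all above the 3-day ones. RSRP1 rose by 1.58 (SE 0.20, adjusted p = 1.51e-05), and its 1-day mean was 135 ± 42.3 CPM.

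Among the SR proteins, SRSF5 had 28.6, 30.6 and 33.4 CPM at 6 days, against 17.5, 19.2 and 23.5 CPM at 3 days (+0.59, SE 0.07, adjusted p = 9.05e-06). SRSF2 averaged 37.2 ± 1.34 CPM at 6 days and 27.2 ± 1.89 CPM at 3 days (+0.45, SE 0.06, adjusted p = 1.55e-05). The RNA helicase DDX17 averaged 123 ± 4.30 CPM at 6 days and 90.2 ± 8.59 CPM at 3 days (+0.45, SE 0.05, adjusted p = 9.05e-06). None of these 3 genes had overlapping groups. RBM5*, a splicing regulator of apoptosis genes, rose by 0.68. The fall was that of CLK3*, a kinase that phosphorylates SR proteins, at 7.08 ± 0.624 CPM at 6 days and 8.84 ± 0.863 CPM at 3 days (-0.30, adjusted p = 0.00737).

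A list of cold-inducible and other RNA-binding proteins gave 5 rises and 0 falls in 6 genes, against 17.4% and 4.93% of all genes. The median was +0.41, with 4 rises under median-of-ratios scaling and 3 among libraries with W-linked transcripts. CIRBP, the cold-inducible RNA-binding protein, had 175, 177 and 205 CPM at 6 days, against 106, 129 and 173 CPM at 3 days (+0.47, SE 0.10, adjusted p = 0.00122). At 1 day it averaged 119 ± 18.9 CPM, below both later levels. RBMX, a nuclear RNA-binding protein, rose by 0.47. SRSF5 stands in this list and also among the splicing genes, so that the lists are not independent of each other.

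Other rises were among the largest by size. RAD54L2, an ATPase of the SNF2 family (chromosome 12, 3080212 to 3119539), had 11.9, 14.8 and 17.1 CPM at 6 days, against 5.39, 5.49 and 7.80 CPM at 3 days. It rose by 1.22 (SE 0.11, adjusted p = 5.59e-07) with no overlap, and a gene on the other strand lies across its locus. CREBZF, a basic leucine zipper factor, averaged 12.2 ± 1.38 CPM at 6 days and 6.12 ± 0.594 CPM at 3 days (+0.94, SE 0.10, adjusted p = 3.4e-06). STBD1, a glycogen-binding protein, averaged 44.4 ± 7.71 CPM at 6 days and 23.2 ± 3.05 CPM at 3 days (+0.92, SE 0.11, adjusted p = 9.05e-06). All 6-day libraries exceeded all 3-day libraries for both. LONRF1, a RING finger protein, rose by 0.98, and JMJD6, a lysine hydroxylase that acts on splicing factors, by 0.91. LONRF1 averaged 27.4 CPM at 6 days, 13.8 CPM at 3 days and 25.7 CPM at 1 day, and JMJD6 8.33, 4.25 and 7.05 CPM. FBXO5, an inhibitor of the anaphase-promoting complex, averaged 9.38 ± 2.36 CPM at 6 days and 4.56 ± 1.501 CPM at 3 days (+0.98, SE 0.23, adjusted p = 0.00414). ERICH1* stood at 288 ± 37.8 CPM at 6 days and 155 ± 22.4 CPM at 3 days (+0.90, adjusted p = 3.22e-06), and EHD4*, a membrane trafficking protein, at 16.4 ± 1.45 CPM at 6 days and 8.87 ± 1.44 CPM at 3 days (+0.86, adjusted p = 1.09e-05).

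STS, the steroid sulfatase (chromosome 1, 127707646 to 127827227), had the largest rise by the naming rule and also one of the least certain. It had 37.5, 80.9 and 89.8 CPM at 6 days, against 2.22, 39.8 and 73.5 CPM at 3 days. The spread was wide, and the groups overlapped. The change of +1.66 (SE 0.59, adjusted p = 0.0458) was no longer past the threshold without any 1 of C31L, C43R, C57L, C59L, C62L, C63R, C64L or C65L (adjusted p up to 0.1145). Without C31L it stood at +1.17 and without C43R at +1.16. Among libraries holding W-linked transcripts STS stood at +0.36 (adjusted p = 0.46), and median-of-ratios scaling also ended its call (adjusted p = 0.0674).

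Several rod genes were higher at 6 days. Of 21 rod phototransduction genes 8 rose and 1 fell, against 17.4% and 4.93% of all genes, with a median of +0.13. With median-of-ratios scaling 7 rose and 1 fell. In retina taken whole, more cells of a type and more RNA per cell cannot be told apart. PDE6B, a catalytic subunit of the rod phosphodiesterase (chromosome Z, 53573478 to 53602211), had 77.8, 89.9 and 113 CPM at 6 days, against 33.5, 46.6 and 59.4 CPM at 3 days. All 6-day libraries were above all 3-day ones, with a change of +1.02 (SE 0.13, adjusted p = 1.51e-05). PDE6B lies on a sex chromosome, and it stood at +1.21 among libraries with W-linked transcripts. It had averaged 72.9 ± 14.05 CPM at 1 day.

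NR2E3, the nuclear receptor that sets rod identity (chromosome 10, 1852294 to 1857168), had 1.58, 2.63 and 3.34 CPM at 6 days, against 0.483, 0.877 and 1.11 CPM at 3 days. It was low but apart in all libraries, and rose by 1.26 (SE 0.14, adjusted p = 5.71e-06). MAFA, the large Maf factor of chicken rods, had 8.99, 11.6 and 13.6 CPM at 6 days, against 4.76, 6.73 and 8.68 CPM at 3 days (+0.73, SE 0.12, adjusted p = 0.000181). Neither gene had overlapping groups. RGS9, which speeds the shutoff of transducin, rose by 0.33, and GUCY2F*, a retinal guanylate cyclase, by 0.69.

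Some rod genes stayed out of this pattern. GNAT1*, the rod transducin alpha subunit, averaged 19.7 ± 2.88 CPM at 6 days and 19.2 ± 5.69 CPM at 3 days (+0.08, adjusted p = 0.759). ABCA4*, the transporter that clears retinal from outer segment discs, was the fall, at 186 ± 12.2 CPM at 6 days and 226 ± 16.2 CPM at 3 days (-0.28, SE 0.05, adjusted p = 0.000562). ABCA4 had averaged 156 ± 9.70 CPM at 1 day, so that its 3-day level was the highest of the ages.

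Cone phototransduction gave 9 rises and 0 falls in 17 genes, against 17.4% and 4.93% of all genes, with a median of +0.29. With median-of-ratios scaling it gave 7 rises and 0 falls. The libraries with W-linked transcripts gave 7 rises and 1 fall. GRK7, the kinase that shuts off cone opsins, had 188, 192 and 230 CPM at 6 days, against 119, 146 and 153 CPM at 3 days. It rose by 0.55 (SE 0.06, adjusted p = 9.05e-06), and other genes overlap it on its strand. GUCA1C, an activator of guanylate cyclase, had 177, 210 and 227 CPM at 6 days, against 120, 139 and 160 CPM at 3 days (+0.56, SE 0.07, adjusted p = 1.51e-05). Neither gene had overlapping groups. CNGA3, a subunit of the cone cyclic GMP-gated channel, averaged 62.3 ± 8.47 CPM at 6 days and 41.01 ± 9.58 CPM at 3 days (+0.62, SE 0.12, adjusted p = 0.000746). ARR3*, cone arrestin, rose by 0.43. At 1 day GRK7 ran from 175 to 206 CPM and GUCA1C from 173 to 235 CPM, both wholly above their 3-day ranges. CNGA3 ran from 46.9 to 68.6 CPM at 1 day, which overlapped its 3-day range.

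The cone opsins did not move as a group. OPN1LW*, the red opsin, had 93.1, 134 and 182 CPM at 6 days, against 73.0, 168 and 221 CPM at 3 days (-0.26, SE 0.25, adjusted p = 0.49). OPN1MSW* had 51.0, 57.1 and 74.1 CPM at 6 days, against 41.4, 58.4 and 82.4 CPM at 3 days (-0.02, SE 0.16, adjusted p = 0.943). The libraries of both ages overlapped widely for these opsins. Among libraries with W-linked transcripts OPN1LW was lower and past the threshold (-0.45, adjusted p = 0.0498). OPN1SW*, a short-wavelength opsin, averaged 1.55 ± 0.645 CPM at 6 days and 0.845 ± 0.286 CPM at 3 days (+0.58, SE 0.18, adjusted p = 0.0259). It no longer passed without C33R, C34L, C62L or C65L (adjusted p up to 0.0629), nor among libraries with W-linked transcripts (adjusted p = 0.16). GNAT2*, the cone transducin subunit, averaged 187 ± 18.2 CPM at 6 days and 181 ± 27.9 CPM at 3 days (+0.05, adjusted p = 0.703).

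In the visual cycle, which returns retinal to its light-sensitive form, 2 of 25 genes rose and 2 fell. Over all genes 17.4% rose and 4.93% fell. RDH8, the enzyme that reduces all-trans-retinal in photoreceptors (chromosome 8, 14341966 to 14351136), had 58.6, 86.6 and 114 CPM at 6 days, against 30.1, 42.6 and 58.1 CPM at 3 days. Its lowest 6-day library lay just above its highest 3-day library. RDH8 rose by 1.10 (SE 0.17, adjusted p = 0.000115), and its 1-day mean was 71.3 ± 19.3 CPM. RBP3, the retinoid carrier between photoreceptors and pigment epithelium, averaged 263 ± 25.5 CPM at 6 days and 205 ± 25.7 CPM at 3 days (+0.36, adjusted p = 0.00307). DHRS3, a retinaldehyde reductase, averaged 9.61 ± 1.199 CPM at 6 days and 12.9 ± 2.21 CPM at 3 days (-0.40, adjusted p = 0.00649). BCO1, which cleaves beta-carotene, averaged 1.47 ± 0.292 CPM at 6 days and 2.83 ± 1.32 CPM at 3 days (-0.68, adjusted p = 0.0081). RBP4, the retinol carrier of blood, which is on chromosome Z and stood in the cone list, had 199, 247 and 279 CPM at 6 days, against 90.8, 127 and 177 CPM at 3 days. It rose by 0.91 (SE 0.12, adjusted p = 1.98e-05) with no overlap, and its 1-day mean was 221 ± 32.9 CPM.

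Photoreceptor transcription factors and outer segment proteins gave 7 rises and 3 falls in 30 genes, against 17.4% and 4.93% of all genes. With median-of-ratios scaling they gave 2 rises and 4 falls, where 8.63% of all genes rose and 8.51% fell. The balance of calls thus moved with the scaling in this list and over all genes. Without C31L the rises numbered 4 and the falls 1. RP1L1, a protein of the outer segment axoneme, averaged 252 ± 22.5 CPM at 6 days and 180 ± 37.7 CPM at 3 days (+0.50, adjusted p = 0.000783). NXNL1, which encodes a survival factor for cones, rose by 0.44 (adjusted p = 0.00809) but did not pass in the libraries with W-linked transcripts (adjusted p = 0.075). Genes of transport along the cilium gave 5 rises and 3 falls in 35, and 8 rises without C42L. The kinesin KIF3B rose by 0.53, its partner KIFAP3 by 0.33 and the trafficking protein BBS7 by 0.41, and BBS9 fell by 0.30.

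Clock genes moved in both directions, with counts to be read against 17.4% rises and 4.93% falls over all genes. Of 14 repressors and output factors 4 rose and 0 fell, with a median of +0.22, and the same counts were obtained with median-of-ratios scaling. Of 12 activators and stabilizers 1 rose and 4 fell, with a median of -0.02, and 0 rose and 5 fell with that scaling. The summed level of the repressors and output factors ran between 849 and 933 CPM at 6 days and between 691 and 761 CPM at 3 days. PER2, a repressor induced by light in birds (chromosome 9, 5654602 to 5695660), had 218, 241 and 269 CPM at 6 days, against 122, 158 and 191 CPM at 3 days. The groups were apart, with a change of +0.62 (SE 0.08, adjusted p = 1.81e-05).

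The cryptochromes followed PER2. CRY2 had 49.4, 55.2 and 60.4 CPM at 6 days, against 36.6, 40.3 and 47.9 CPM at 3 days (+0.39, SE 0.06, adjusted p = 0.000186). CRY1 had 43.6, 46.1 and 49.0 CPM at 6 days, against 32.1, 38.3 and 42.7 CPM at 3 days (+0.27, SE 0.05, adjusted p = 0.00129). HLF, an output factor of the PAR family, averaged 265 ± 12.8 CPM at 6 days and 224 ± 11.5 CPM at 3 days (+0.24, SE 0.05, adjusted p = 0.000952). The 6-day libraries were above the 3-day libraries throughout for these 3 genes. PER3* stood at +0.31 (adjusted p = 0.0527) and NR1D2*, a repressor of ARNTL, at +0.14 (adjusted p = 0.114), neither past the threshold, though PER3 passed among libraries with W-linked transcripts (+0.41, adjusted p = 0.0266).

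Among the activators, ARNTL2, the paralog of BMAL1, had 32.99, 34.9 and 41.6 CPM at 6 days, against 40.7, 52.6 and 57.5 CPM at 3 days. It fell by 0.49 (SE 0.07, adjusted p = 4.92e-05), with 6 of the 7 libraries at 6 days below all at 3 days. ARNTL* had 20.1, 25.9 and 36.8 CPM at 6 days, against 27.9, 37.7 and 44.9 CPM at 3 days, and fell by 0.46 (SE 0.14, adjusted p = 0.0198). FBXL21, a ubiquitin ligase subunit that acts on cryptochromes, had 21.3, 25.3 and 27.3 CPM at 6 days, against 29.1, 35.8 and 41.97 CPM at 3 days (-0.54, SE 0.09, adjusted p = 0.000175), with no overlap. RORA, an activator of ARNTL, fell by 0.17 (adjusted p = 0.00618) and did not pass in the libraries with W-linked transcripts (adjusted p = 0.13). CLOCK averaged 109 ± 6.05 CPM at 6 days and 93.4 ± 9.49 CPM at 3 days, a change of +0.23 (adjusted p = 0.00951) that no longer passed with median-of-ratios scaling (+0.15) or in the libraries with W-linked transcripts (+0.15, adjusted p = 0.14). The levels at 1 day differed from gene to gene. PER2 averaged 245 ± 20.5 CPM then, CRY1 37.2 ± 1.84 CPM, ARNTL 16.3 ± 3.95 CPM and ARNTL2 35.3 ± 2.21 CPM.

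**Figure D4:**
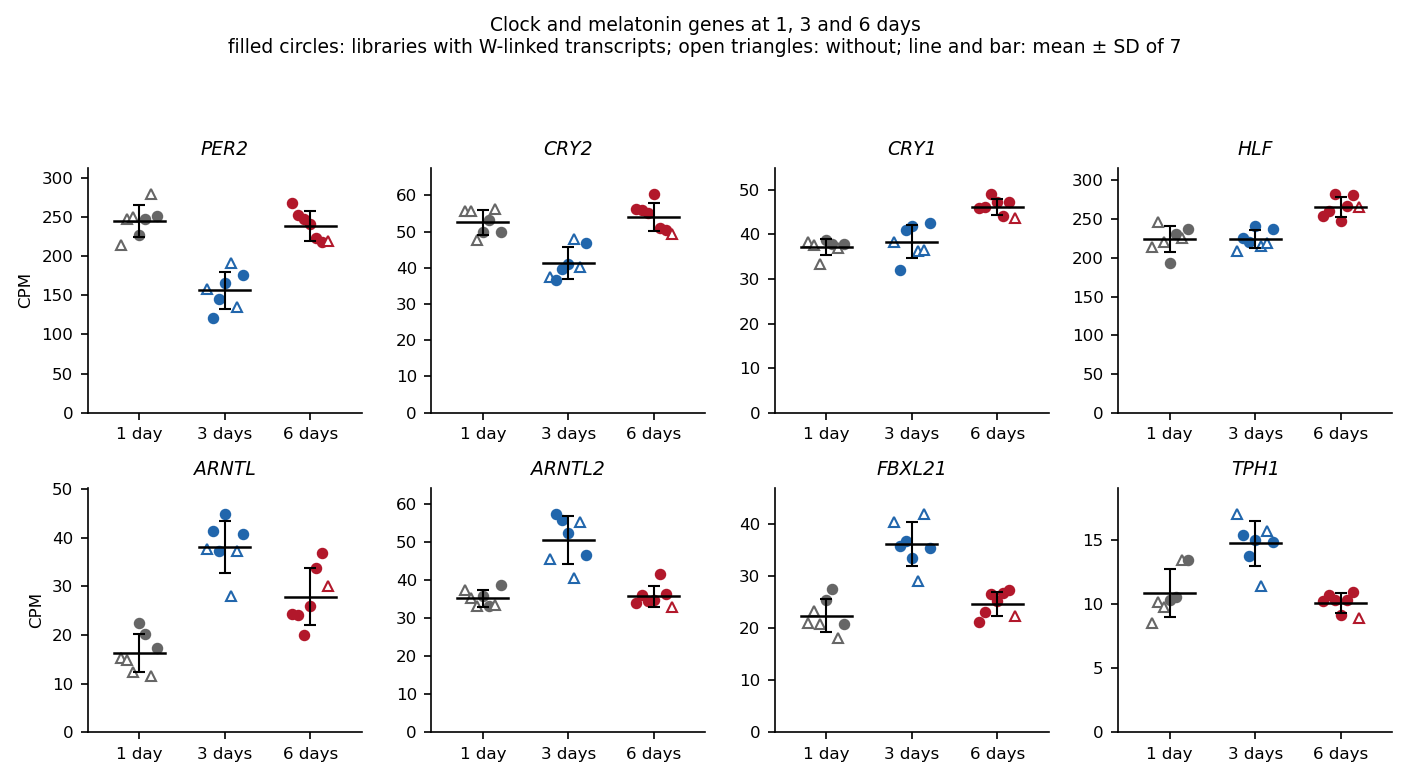
CPM of 8 clock and melatonin genes in each library at 1, 3 and 6 days, with the mean and SD of 7 libraries; filled circles are libraries with W-linked transcripts and open triangles those without. PER2 and CRY2 are lowest at 3 days, whereas ARNTL, ARNTL2, FBXL21 and TPH1 are highest there.

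Melatonin and dopamine genes gave 2 rises and 3 falls in 17, against 17.4% and 4.93% of all genes. ASMT, the last enzyme of melatonin synthesis, had 15.1, 16.8 and 22.1 CPM at 6 days, against 10.01, 13.1 and 14.03 CPM at 3 days (+0.52, SE 0.09, adjusted p = 0.000298). TPH1, the first enzyme of the serotonin and melatonin path, had 8.97, 10.3 and 11 CPM at 6 days, against 11.4, 15.02 and 17.1 CPM at 3 days (-0.52, SE 0.09, adjusted p = 0.000415). Groups were apart for both enzymes, in opposite directions. AANAT*, the rhythmic enzyme between them, averaged 3.20 ± 0.787 CPM at 6 days and 2.96 ± 0.426 CPM at 3 days (+0.08, adjusted p = 0.695). The melatonin receptor MTNR1A averaged 2.42 ± 0.803 CPM at 6 days and 3.58 ± 0.660 CPM at 3 days (-0.51, adjusted p = 0.0133), a fall not past the threshold in the libraries with W-linked transcripts (adjusted p = 0.16).

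Genes that were lower at 6 days were fewer in the deposited scaling, but with median-of-ratios scaling they were nearly as many as the rises. Calls of at least 2-fold were 29 falls and 12 rises. Several of the falls named here were of low level. NDRG1, a stress-responsive gene of the hypoxia and glucocorticoid lists (chromosome 2, 141967427 to 142007619), had 66.6, 82.9 and 89.3 CPM at 6 days, against 124, 140 and 167 CPM at 3 days. It fell by 0.84 (SE 0.09, adjusted p = 5.74e-06), with all 6-day libraries below all 3-day ones. NDRG1 averaged 70.6 ± 10.7 CPM at 1 day, so that 3 days held its highest level. PDK4, the kinase that blocks pyruvate dehydrogenase (chromosome 2, 23874761 to 23914453), had 15.3, 21.6 and 26.3 CPM at 6 days, against 31.8, 42.96 and 56.99 CPM at 3 days. Its fall of 0.94 (SE 0.13, adjusted p = 5.25e-05) was again without overlap, and at 1 day PDK4 averaged 20.7 ± 4.18 CPM.

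NEK10, a NIMA-related kinase, had 2.16, 2.57 and 3.43 CPM at 6 days, against 4.09, 7.07 and 10.2 CPM at 3 days (-1.24, SE 0.16, adjusted p = 1.65e-05). BMPER, a secreted protein that binds bone morphogenetic proteins, had 1.83, 2.24 and 2.76 CPM at 6 days, against 3.81, 4.25 and 7.90 CPM at 3 days (-1.03, SE 0.17, adjusted p = 0.000177). UBAP1L averaged 4.00 ± 0.787 CPM at 6 days and 9.36 ± 3.02 CPM at 3 days (-1.10, adjusted p = 2.1e-05), and CCDC169 averaged 2.57 ± 0.446 CPM at 6 days and 5.51 ± 1.58 CPM at 3 days (-0.94, adjusted p = 0.000404). These 4 genes were of low level, and none had overlapping groups. RAPSN, which clusters acetylcholine receptors, averaged 5.98 ± 1.15 CPM at 6 days and 11.4 ± 2.18 CPM at 3 days (-0.87, adjusted p = 0.000187). TMC1, which lies on chromosome Z and is known from the mechanotransduction channel of the inner ear, fell by 0.75. TMC1 stood at -0.52 with the W-linked covariate (adjusted p = 0.00126). Among libraries with W-linked transcripts it stood at -0.51 (adjusted p = 0.0191). RTKN2, a rhotekin on chromosome 6, fell by 0.73. ACAP3*, a GTPase-activating protein for ARF6, averaged 123 ± 6.47 CPM at 6 days and 178 ± 19.2 CPM at 3 days (-0.53, adjusted p = 9.05e-06), and PTN*, the growth factor pleiotrophin, 523 ± 35.5 CPM at 6 days and 676 ± 28.3 CPM at 3 days (-0.37, adjusted p = 1.21e-05).

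Some of the largest falls rested on variable libraries. NEBL1 had 14.4, 35.2 and 102 CPM at 6 days, against 44.8, 151 and 213 CPM at 3 days (-1.96, SE 0.51, adjusted p = 0.00778), with overlap. CD69L had 0.335, 5.29 and 18.4 CPM at 6 days, against 4.52, 13.7 and 22.1 CPM at 3 days (-1.60, SE 0.57, adjusted p = 0.0472). This call was lost without any 1 of C31L, C33R, C34L, C41R, C43R, C57L, C58R, C59L or C62L (adjusted p up to 0.113), and with the W-linked covariate. F3, tissue factor, averaged 6.92 ± 2.56 CPM at 6 days and 12.2 ± 4.11 CPM at 3 days (-0.79, adjusted p = 0.0321). It lost its call without C43R, C44R, C57L, C59L or C64L (adjusted p up to 0.0789) and in the libraries with W-linked transcripts (adjusted p = 0.11). The histone gene HIST1H2BO (-0.75, adjusted p = 0.0228), whose near copies share sequence, lost it without C42L, C43R or C64L (adjusted p up to 0.0561). ETNPPL, a phospholyase of phosphoethanolamine, stood at -0.72 (adjusted p = 0.0215) and lost it without C64L or C65L (adjusted p up to 0.0551). HIST1H2BO, ETNPPL and PBLD (-0.69) did not pass in the libraries with W-linked transcripts (adjusted p = 0.38, 0.061 and 0.22).

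Genes that respond to glucocorticoids or FOXO factors gave as many rises as falls, 6 each in 25, against 17.4% and 4.93% of all genes. With median-of-ratios scaling they gave 3 rises and 8 falls, where 8.63% of all genes rose and 8.51% fell. SGK1, a kinase induced by glucocorticoids, had 47.4, 62.7 and 76.6 CPM at 6 days, against 38.5, 41.9 and 47.2 CPM at 3 days (+0.52, SE 0.09, adjusted p = 0.000358). FOXO4 rose by 0.48 and KLF15* by 0.36. The falls included, besides NDRG1 and PDK4, KLF9 on chromosome Z, at 64.6 ± 8.76 CPM at 6 days and 76.1 ± 2.93 CPM at 3 days (-0.24, adjusted p = 0.00989), and the insulin receptor substrate IRS2* (-0.34, adjusted p = 0.00159). FKBP5*, a gene that glucocorticoids induce in many tissues, averaged 16.0 ± 1.63 CPM at 6 days and 17.2 ± 3.21 CPM at 3 days (-0.09, adjusted p = 0.615). Calls in the list thus went in both directions, with falls at 24% of members tested against 4.93% of all genes. The differences from the shares over all genes were not tested.

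The list of hypoxia-inducible factors and targets, which also holds their regulators, gave 7 rises and 1 fall in 22. The fall was that of NDRG1. Glycolysis gave 8 rises and 1 fall in 29. Over all genes 17.4% rose and 4.93% fell. With median-of-ratios scaling the hypoxia list had 6 rises and 2 falls and glycolysis 4 rises and 3 falls. With that scaling 8.63% of all genes rose and 8.51% fell. PGK1, phosphoglycerate kinase, had 154, 157 and 168 CPM at 6 days, against 115, 124 and 142 CPM at 3 days (+0.35, SE 0.05, adjusted p = 1.82e-05). HIF1AN and EGLN1, oxygen sensors that restrain HIF1A, rose by 0.36 and 0.28, and the histone demethylase KDM3A by 0.30. The lactate exporter SLC16A3 rose by 0.48. HK2*, a hexokinase, averaged 185 ± 42.2 CPM at 6 days and 131 ± 13.7 CPM at 3 days (+0.47, adjusted p = 0.0119), a rise not past the threshold in the libraries with W-linked transcripts (adjusted p = 0.11).

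Lipid synthesis gave 4 rises and 1 fall in 37 genes, against 17.4% and 4.93% of all genes. FASN, fatty acid synthase, averaged 172 ± 11.2 CPM at 6 days and 132 ± 9.73 CPM at 3 days (+0.38, SE 0.06, adjusted p = 0.000192). The elongase ELOVL6 rose by 0.39 and ACLY, which makes cytosolic acetyl-CoA, by 0.45. All 3 were without overlap. Cytosolic ribosomal proteins gave 15 rises and 0 falls in 70 genes, close to the background in the main scaling, and 6 rises and 1 fall with median-of-ratios scaling. RPLP0 rose by 0.47, RPLP2 by 0.29 and RPL4 by 0.27. Nuclear genes of oxidative phosphorylation gave 5 rises and 0 falls in 67, below the background, with NDUFB1 at +0.39, and 8 rises without C65L. Cell cycle genes gave 2 rises and 0 falls in 28.

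Counts for markers of other retinal cells are given beside 17.4% rises and 4.93% falls over all genes, and the differences from these shares were not tested. Muller glia had 2 rises and 1 fall in 21, bipolar cells 1 and 2 in 20, amacrine cells 1 and 1 in 29 (3 rises without C33R), horizontal cells 2 and 1 (NDRG1) in 15 and ganglion cells 4 and 0 in 26. With median-of-ratios scaling, where 8.63% of all genes rose and 8.51% fell, the counts were 2 and 1 for Muller glia, 1 and 3 for bipolar cells, 0 and 4 for amacrine cells, 2 and 2 for horizontal cells and 2 and 0 for ganglion cells. FGFR3, a receptor of the Muller list, averaged 4.09 ± 0.491 CPM at 6 days and 2.80 ± 0.333 CPM at 3 days (+0.48, adjusted p = 0.00117). GLUL*, glutamine synthetase of Muller glia, averaged 597 ± 62.4 CPM at 6 days and 542 ± 57.8 CPM at 3 days (+0.14, adjusted p = 0.241). VSX1, a bipolar cell factor, averaged 61.2 ± 6.09 CPM at 6 days and 80.8 ± 10.7 CPM at 3 days (-0.39, SE 0.08, adjusted p = 0.00107). ONECUT1, of horizontal cells, averaged 2.32 ± 0.316 CPM at 6 days and 1.38 ± 0.329 CPM at 3 days (+0.60, adjusted p = 0.00167), and did not pass in the libraries with W-linked transcripts (adjusted p = 0.062). Among ganglion cell genes STMN2 and MAPT, which act on microtubules, rose by 0.28 and 0.41, and neither passed in the libraries with W-linked transcripts (adjusted p = 0.055 and 0.13).

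Genes of neuronal function gave calls in both directions, to be read against 17.4% rises and 4.93% falls over all genes. Synaptic vesicle release gave 6 rises and 1 fall in 37, neurotransmitter receptors 4 and 0 in 36, voltage-gated channels 10 and 2 in 47 and axon guidance 3 and 1 in 38. With median-of-ratios scaling, where 8.63% of all genes rose and 8.51% fell, the same lists had 3 and 2, 1 and 4, 2 and 4, and 1 and 3. Falls then outnumbered rises in the last 3, while the balance over all genes also moved, to near equal. Leaving out 1 library also moved these counts: receptors had 1 rise without C59L, channels 6 without C34L, and axon guidance 1 without C42L and 6 without C44R. KCNV2, a potassium channel subunit of photoreceptors on chromosome Z, rose by 0.47. CACNA2D4, an auxiliary subunit of photoreceptor calcium channels, averaged 68.2 ± 8.77 CPM at 6 days and 91.1 ± 7.36 CPM at 3 days (-0.42, SE 0.09, adjusted p = 0.00144), and CACNA2D3, a related subunit, fell by 0.23. GJD2, a gap junction protein of the amacrine list, fell by 0.29, and DNM1, the dynamin of synaptic endocytosis, rose by 0.31.

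Signals tied to the control of eye growth gave 1 rise and 2 falls in 34 genes (4 rises without C41R). Over all genes 17.4% rose and 4.93% fell. FGF1, a fibroblast growth factor, averaged 2.38 ± 0.559 CPM at 6 days and 3.61 ± 0.952 CPM at 3 days (-0.51, adjusted p = 0.0115), and did not pass in the libraries with W-linked transcripts (adjusted p = 0.06). BDNF* stood at 3.53 ± 0.825 CPM at 6 days and 3.88 ± 0.336 CPM at 3 days (adjusted p = 0.433), VIP* at 0.755 ± 0.163 CPM at 6 days and 0.755 ± 0.199 CPM at 3 days (adjusted p = 0.981), and BMP2* at 0.732 ± 0.189 CPM at 6 days and 0.900 ± 0.253 CPM at 3 days (adjusted p = 0.385). Immediate early genes gave 3 rises and 1 fall in 21. ATF3 averaged 5.19 ± 0.889 CPM at 6 days and 3.41 ± 0.830 CPM at 3 days (+0.55, adjusted p = 0.00256). EGR1*, which neuronal activity induces within minutes, had 3.21, 5.78 and 9.17 CPM at 6 days, against 3.12, 10.6 and 14.9 CPM at 3 days (-0.44, SE 0.29, adjusted p = 0.302), and FOS* did not pass either (-0.50, adjusted p = 0.108).

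Thyroid hormone signaling gave 4 rises and 1 fall in 15 genes, and the extracellular matrix 4 rises and 2 falls in 36, against 17.4% and 4.93% of all genes. With median-of-ratios scaling thyroid hormone signaling had 2 rises and 1 fall and the matrix 4 and 4. Interferon-induced genes gave 1 rise and 3 falls in 17. IFIT5 averaged 0.449 ± 0.274 CPM at 6 days and 1.48 ± 0.540 CPM at 3 days (-1.07, SE 0.20, adjusted p = 0.00066), with no overlap. ZNFX1, an RNA helicase, averaged 1.05 ± 0.200 CPM at 6 days and 2.003 ± 0.894 CPM at 3 days (-0.64, adjusted p = 0.00982). USP18, a brake on interferon signaling, fell by 0.51 and did not pass in the libraries with W-linked transcripts (adjusted p = 0.3). All 3 were near the pseudocount, so that their changes are understated.

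Markers of other tissues and of myelin gave 2 rises and 1 fall, of MITF, KDR and ASPA. The counts in these lists stand beside 17.4% rises and 4.93% falls over all genes, and differences from these shares were not tested. Lens, blood and leukocyte, and muscle, cornea, sclera and fibroblast markers gave 0 calls in 6, 6 and 4 genes tested. Their summed levels were 23.7 to 27.8, 7.66 to 11.3 and 16.0 to 20.3 CPM at 6 days, and 19.1 to 28.7, 8.49 to 12.6 and 16.5 to 19.9 CPM at 3 days. Pigment epithelium markers summed to 191 to 243 CPM at 6 days and 187 to 221 CPM at 3 days. Much of this sum was 1 member, which averaged 143 CPM at 6 days and 132 CPM at 3 days. Another, at 33.9 and 32.9 CPM, is also among the retinal markers. The list gave 1 rise in 9, that of MITF (+0.23, adjusted p = 0.0252). This call was lost without C31L or C34L (adjusted p up to 0.055) and with median-of-ratios scaling. Endothelial markers summed to 54.2 to 78.1 CPM at 6 days and 48.6 to 65.9 CPM at 3 days. KDR alone averaged 38.4 CPM at 6 days and 31.5 CPM at 3 days, and 7 of the 16 members stayed under 0.5 CPM in every library. The list gave 1 rise in 5, that of KDR (+0.28, adjusted p = 0.0491). This call was lost with median-of-ratios scaling and on leaving out any 1 library but C31L, C41R, C57L or C63R (adjusted p up to 0.114). Oligodendrocyte genes, summed to 289 to 447 CPM at 6 days and 284 to 332 CPM at 3 days, gave 0 rises and 1 fall in 15, that of ASPA (-0.17, adjusted p = 0.0268), lost without C31L, C34L, C43R, C58R or C62L (adjusted p up to 0.0601) and among libraries with W-linked transcripts.

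Noncoding RNA was prominent among the falls. It made up 8.09% of the genes tested, 1.69% of the rises (37 genes) and 28.3% of the falls (176 genes). These shares depended on the scaling. With median-of-ratios scaling 20 of the 1088 rises and 211 of the 1074 falls were noncoding. LOC107056600* had 25.2, 29.2 and 30.4 CPM at 6 days, against 42.1, 46.2 and 51.1 CPM at 3 days (-0.67, SE 0.07, adjusted p = 3.22e-06). LOC112533362* averaged 21.1 ± 5.04 CPM at 6 days and 62.9 ± 17.4 CPM at 3 days (-1.53, SE 0.28, adjusted p = 0.000513). Both had all 6-day libraries below all 3-day libraries. The share of total reads that fell in the table's genes was higher at 6 days, as given above, and its part in these counts was not tested.

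Genes on the sex chromosomes were counted beside the unequal number of libraries with W-linked transcripts. Of 611 genes on Z, 32 rose and 28 fell, against 17.4% and 4.93% of all genes, with median-of-ratios scaling 14 rose and 41 fell, and with the W-linked covariate 100 rose and 31 fell. The median of the 35 W genes was +1.28, with 0 calls. HINTW stood between 0.0928 and 147 CPM at 6 days and between 0.0955 and 145 CPM at 3 days (adjusted p = 0.425). The median log2 deviation of Z genes from their own means over the 21 libraries, minus that of autosomal genes, marks the same libraries. It was 0.253 to 0.345 in the 8 libraries of the series without W-linked transcripts. In the 13 libraries with them it was between -0.292 and -0.128.

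**Figure D5:**
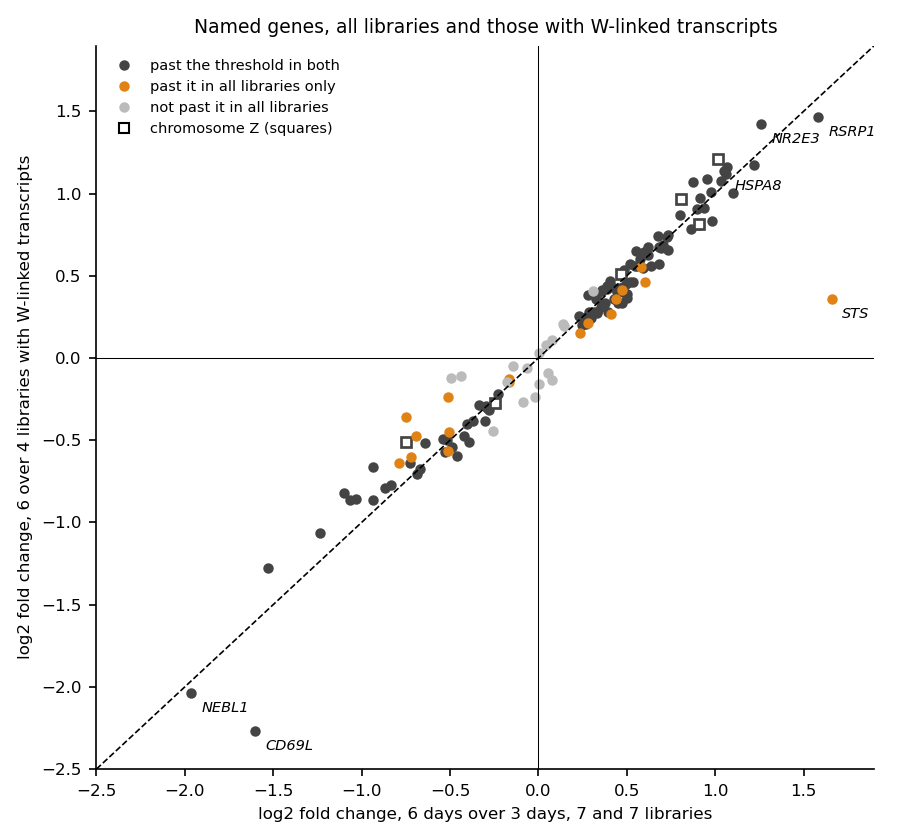
Log2 fold change of the genes named in the text other than HINTW, 6 days over 3 days, in all 7 and 7 libraries (horizontal axis) and in the 6 and 4 libraries with W-linked transcripts (vertical axis); the dashed line marks equal values, squares are genes on chromosome Z and colours give the side of the threshold. STS lies farthest from the line, at +1.66 and +0.36, and CD69L stands at -1.60 and -2.27.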

How the data were processed

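Retinal total RNA was depleted of ribosomal RNA and sequenced from strand-marking libraries, per the labels' protocols. The authors deposited CPM, reads scaled to each library total, for 18631 genes in 21 libraries, with an offset of 0.0001 CPM, which was subtracted here. STAR, Partek and the build GRCg6a are named in the submitters' processing notes, with no versions; whether counting used strand is not given in the sources used here. Multiples of the smallest step made 94.0% to 94.8% of values whole in the 14 libraries, within 0.1 of a step, so no count test was run.

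Genes with at least 0.5 CPM in 7 or more of 21 libraries entered limma 3.58.1 (run under R 4.3.3) as log2(CPM + 0.5), with a mean-variance trend, 1 fit over the 3 groups and the contrast of 6 days minus 3 days. P-values were two-sided and adjusted by Benjamini-Hochberg over 12614 genes, with a threshold of 0.05. The fit was tested on simulated data. Python 3.11.15, pandas 2.3.3 and matplotlib 3.10.9 made summaries and figures. Libraries with HINTW at or above 10 CPM were counted as holding W-linked transcripts.

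The text names the 15 largest rises and 15 largest falls past the threshold with a mean of at least 5 CPM in the higher group, up to 4 genes of smallest adjusted p in each list, and HINTW; other genes are marked as chosen after their values were seen. The comparison, its members and its lists were chosen with earlier results of these data known. Some genes that this rule names are not reported here. Of the 149 genes named, 15 overlap another gene on the same strand and 39 on the other strand. Coordinates are those deposited with the CPM values, for which the processing notes name the build GRCg6a. Chromosome names were assigned by matching gene symbols to RefSeq genes of another build. Alternatives covered pseudocount, filter, scaling, covariates, W-linked libraries and leaving out each library.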

Additional observations from a re-analysis of the deposited data

Results flagged for a closer look

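Libraries far from the others of their age were found in 23 of 304 groups of 7, where chance alone marks about 1 in 20. At 6 days, library C57L stood apart with 48.2 CPM of CCT5, 108 CPM of HSPA5 and 1.14 CPM of FOS, all high, and with 25.2 CPM of LOC107056600, low. Library C62L was high for CIRBP at 205 CPM. Library C63R was low for DHRS3 at 7.26 CPM and high for ARNTL2 at 41.6 CPM. Library C64L was high for BCO1 at 2.07 CPM and for CLOCK at 121.7 CPM. Library C59L was low for NXNL1 at 20.5 CPM and high for ASPA at 93.3 CPM. Library C65L was high for KLF9 at 83.5 CPM and low for MITF at 16.2 CPM. It was also the 6-day library without W-linked transcripts, with 0.0928 CPM of HINTW. There the median deviation of Z genes from their own series means exceeded that of autosomal genes by 0.253 on the log2 scale.

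At 3 days, library C44R was high for AHSA1 at 15.4 CPM and for RAD54L2 at 7.80 CPM. Library C41R was high for RSRP1 at 99.2 CPM, for RP1L1 at 259.9 CPM and for KIF3B at 18.04 CPM. Library C42L was low for FASN at 111.9 CPM and high for ZNFX1 at 3.89 CPM. Library C33R was high for FGF1 at 5.70 CPM.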

How the results depend on the processing

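Genes past the threshold numbered 2214 to 3205 when 1 library was left out, with 1708 to 2559 higher and 505 to 663 lower at 6 days. Scaling changed the balance: 1088 higher and 1074 lower with median-of-ratios scaling, 1103 and 1113 with quantile normalization, and 1010 and 1030 with the W-linked covariate added to median-of-ratios scaling. Libraries with W-linked transcripts gave 1202 calls, 838 higher and 364 lower, and with median-of-ratios scaling 970, of which 456 were higher, a setting chosen after seeing the data. Fewer libraries enter these fits, and otherwise the cause was not tested. Of 131 called genes named above, mostly chosen for a large change or a small adjusted p, none reversed. Among these, 4 lost their call with median-of-ratios scaling, 17 in the libraries with W-linked transcripts and 29 with both. Calls as a whole were kept less often. Of all 2813, 1710 were also called with median-of-ratios scaling and 1103 in the libraries with W-linked transcripts. No paired analysis was possible because the groups share none of the numbers in their titles. Depth limits genes near the pseudocount of 0.5 CPM.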
